A study of Saccharomyces cerevisiae with 24 samples.

Results

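In budding yeast, the transcription factor Ndt80 switches on the middle meiotic genes as cells leave prophase and begin the meiotic divisions. It binds the middle sporulation element, a short sequence in the promoters of genes for the divisions and for the prospore membrane, the membrane that encloses each future spore. Many open reading frames (ORFs) that are transcribed at this stage have never been given a gene name. Pho92, the yeast member of the YTH family, recognises mRNA that carries N6-methyladenosine (m6A), a mark deposited early in meiosis.

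The 19 ORFs described here are rows of the deposited table of 6157 features that have a systematic ORF name and no standard gene name in the RefSeq annotation of the R64 assembly. Of the 997 unnamed ORF rows, these 19 had at least 5 CPM (a count scaled to the total of its library) in replicate 2 of the wild type (WT) and at least 3 times the CPM of the higher of WT replicates 1 and 3. The same limits were met by 79 rows of all kinds, 58 of them named ORFs. A further 70 unnamed ORFs passed the ratio but not the 5 CPM. The WT values chose the members, so they are given as a description and enter no test, apart from an alternative fit of all 24 libraries in which WT adds to the estimate of spread. Without length or composition scaling, the ratio in WT ran from 3.03 for YHL012W, 3.18 for YPL035C and 3.53 for YNR014W, the members nearest the limit, to 6.25 for YPR077C. YCL021W-A (2.96), YGL138C (2.86) and YOR365C (2.86) lay just outside.

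Polyadenylated RNA was sequenced from diploid MATa/alpha cells in sporulation medium, all of them carrying trp1::hisG, his3::hisG and leu2::hisG with ura3, lys2 and ho::LYS2. Copper sulfate was added to 50 µM at 3 h in every culture, and the labels describe an arrest in early meiosis and give no time of collection. Each of the 8 groups had 3 libraries. WT carried native PHO92, and the deletion group (pho92Δ) carried pho92::HYG. The other 6 groups also lacked the native gene (hyg::pho92) and carried, at trp1, PHO92 with an HA tag driven by the CUP1 promoter, which copper induces. That copy encoded wild-type Pho92 in CUP1-PHO92, Pho92 without residues 35 to 42 in Δ35-42, and Pho92 with the substitution L35A, L38P, I39A or W177A in the groups of those names. The labels do not state how many clones or separate cultures a group stands for.

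Total counts per library were 16108079 to 36733806. CPM in this paragraph have the library totals scaled by TMM, which is explained below. PHO92 had 804 to 924 CPM in WT, 0.0381 to 0.753 CPM in pho92Δ and 7571 to 16419 CPM in the 6 CUP1 groups. A header line puts L38P replicate 2 and W177A replicate 1 in sequencing batch B and the other 22 libraries in batch A. Another gives the W177A libraries the strain number of the CUP1-PHO92 libraries and has the word delete in their group name, and for I39A the genotype label has L39A. Groups follow the titles, since gene counts do not show a substitution. The summed level of a 38-gene middle meiotic list was 1555 to 30395 CPM and that of a 28-gene early meiotic list 15902 to 39221 CPM, while haploid and mating-type genes, which diploids repress, summed to 199 to 311 CPM over the 13 listed genes in the table.

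R64 has an entry for 16 of the 19 ORFs. YNL205C, YPL035C and YPR077C have none, so their position and sequence are not described, though they are counted among the 19. Their overlap with other genes was not checked, so whether their counts are separate from those of a neighbour is not known. Each of the 16 has 1 uninterrupted coding sequence, 147 to 568 codons long, and 0 of them overlap another R64 gene. YDL114W is a putative short-chain dehydrogenase/reductase, YFL040W a putative transporter of the sugar porter family, and YHL012W a putative UTP glucose-1-phosphate uridylyltransferase. YGR273C, YHL012W, YNR014W and YOL024W are copies from the whole genome duplication, with the partners GSR1 (YMR295C), UGP1, YMR206W and IGD1. The rest are described as hypothetical proteins. YFL012W is annotated as transcribed during sporulation, YML119W as a potential substrate of the kinase Cdc28, and YPR078C as possibly linked to DNA metabolism or genome stability. YNL019C has a near-identical copy, YNL033W, not analysed here; 96.2% of its 31-base stretches occur elsewhere in the genome, so its counts are uncertain.

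The bases before the start codons were searched for the element bound by Ndt80, which the rule did not use. In the 500 bases upstream, on both strands, 9 of the 16 ORFs had an extended element (GNCACAAAA, GNCACAAAT, GNCGCAAAA or GNCGCAAAT), against 493 of 6000 protein-coding R64 genes (8.22%). The core of the element, the same letters without the leading GN and so contained in every extended match, was present in 12 of 16 and in 30.6% of all genes. The early meiotic element URS1, bound by Ume6, was searched as its core GGCGGC and was found before YNR014W alone of the 16 and before 9.57% of all genes. The match nearest the start codon is shown for 8 of the 9 ORFs, since these are the bases the ORFs share. Capitals mark the element, each sequence is read on the strand that holds it, and coordinates are those of RefSeq R64.
YDR042C, chrIV:541410-541434, minus strand, 219 bases before the start codon: ttgctaatGACACAAAAtcctgtta
YPR078C, chrXVI:698445-698469, minus strand, 192 bases before: attttgatGTCACAAAAaagtaata
YDL114W, chrIV:255475-255499, minus strand, 117 bases before: caagaagtGTCACAAATtctgttcc
YFL040W, chrVI:51224-51248, plus strand, 114 bases before: ccaagaacGTCACAAAAaaaggatg
YGR273C, chrVII:1039340-1039364, plus strand, 113 bases before: ttgagtgcGTCACAAATgcatataa
YDL186W, chrIV:125504-125528, minus strand, 100 bases before: tacgaagtGTCGCAAATtagttgtt
YER085C, chrV:328215-328239, minus strand, 87 bases before: aattgaacGTCACAAAAtagcagag
YFL012W, chrVI:110591-110615, plus strand, 44 bases before: actaataaGTCGCAAATatagctat
The distance is counted from the centre of the match. YDL186W and YGR273C had a second extended element further upstream, and YFL012W had 3 in all. YHL012W, YML119W and YNR014W had a core without the extended form, and YJL043W, YKR015C, YNL019C and YOL024W had neither in this window. The URS1 core of YNR014W lies 277 bases before its start codon. It is shown because this ORF was higher in L38P than in pho92Δ while the other 18 had lower means there. That choice followed the values, and any part of the match in the difference was not tested.
YNR014W, chrXIV:652177-652198, minus strand, URS1 core: aaatgaggGGCGGCgagaggta
A match is a description of these letters and not a measured binding site.

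**Figure D1:**
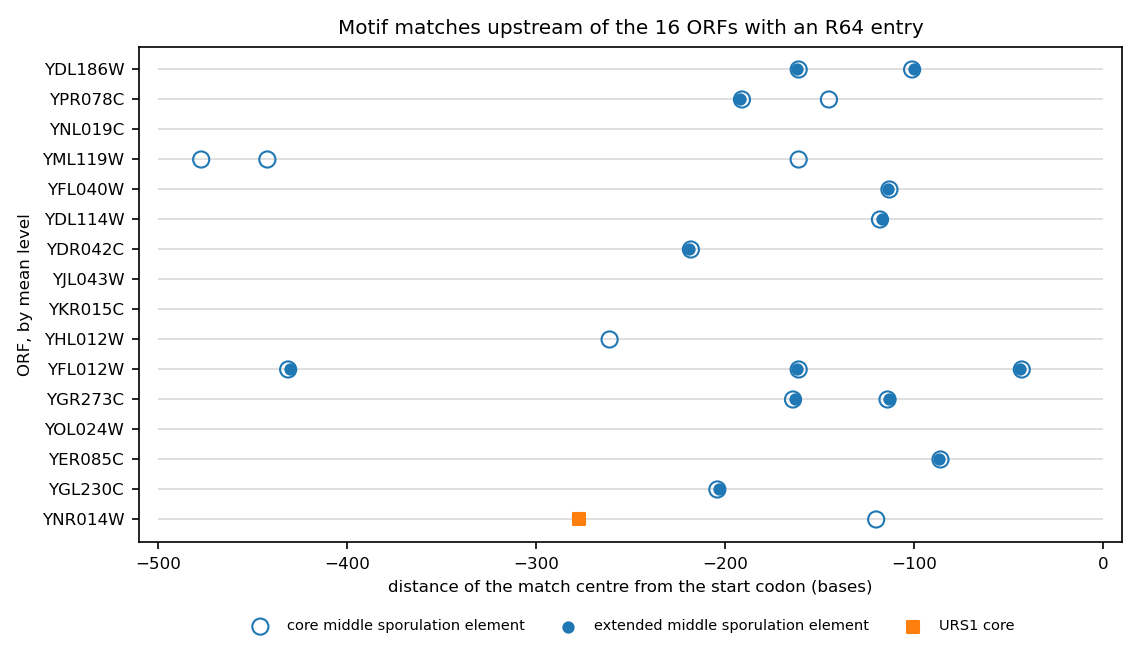
Matches to the extended and core middle sporulation element and to the URS1 core, by distance in bases from the start codon, for the 16 ORFs with an R64 entry in order of mean level. Filled circles, the extended form, lie before 9 ORFs; the square, the URS1 core, lies before YNR014W.

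Outside WT, the 19 ORFs had higher group means in CUP1-PHO92, L35A and I39A than in pho92Δ, Δ35-42, W177A and L38P. Levels here and below are CPM with the library totals scaled by TMM, a factor that corrects for differences in composition. Summed over the 19 ORFs, the level was 172 ± 41.1 CPM in pho92Δ, 820 ± 397 in CUP1-PHO92, 238 ± 126 in Δ35-42, 1509 ± 1078 in L35A, 101 ± 37.0 in L38P, 892 ± 312 in I39A and 307 ± 167 in W177A (SD, n = 3 each). The 3 WT libraries, described only, summed to 575, 3647 and 770 CPM. By group mean, L35A was the highest of the 7 groups for 18 ORFs and L38P the lowest for 18; for YNR014W the highest was CUP1-PHO92 and the lowest pho92Δ. The ratio of highest to lowest group mean ran from 5.32 for YPL035C to 62.8 for YKR015C. Per kilobase of coding sequence, the mean level over the 21 libraries ran from 12.5 CPM for YKR015C to 105 CPM for YDL186W. In these bulk samples, fewer cells at a stage and less RNA per cell cannot be told apart.

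All 19 ORFs passed the filter on low counts in the 21 libraries other than WT, and a model fitted to these libraries tested each feature for any difference among the 7 group means. With edgeR's quasi-likelihood test, all 19 passed at a Benjamini-Hochberg adjusted p under 0.05, as did 62.5% of the 5692 features tested. Adjusted p ran from 2.25e-05 for YNR014W to 0.0390 for YPL035C, the ORF with the lowest counts (9 in its lowest library). With WT included in the fit, 18 passed.

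**Figure D2:**
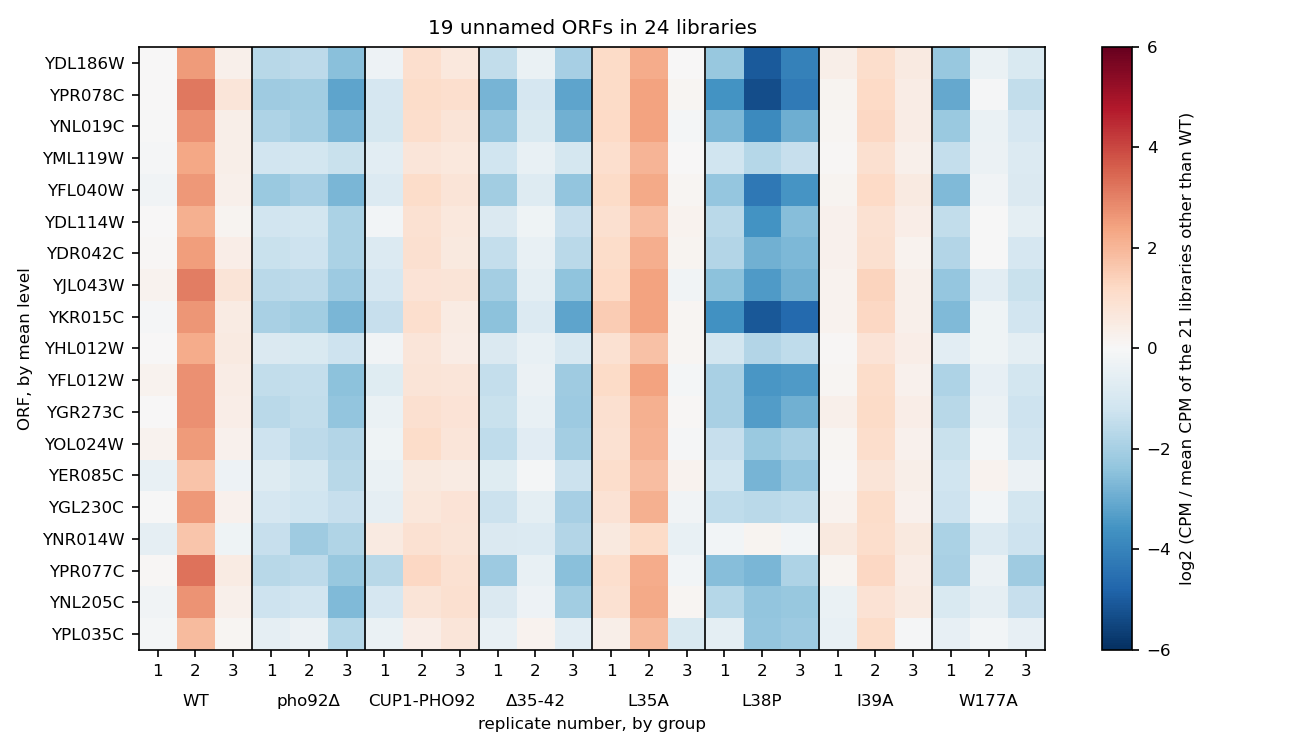
Level of each ORF in each of the 24 libraries, as log2 of its TMM-scaled CPM over its mean in the 21 libraries other than WT; rows are ORFs in order of mean CPM and columns are libraries by group. L35A replicate 2 is the highest of the 21 for all 19 ORFs, and L38P replicate 2 the lowest for 16.

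Expression of wild-type Pho92 from the CUP1 promoter, compared with its absence, went with higher levels of the unnamed ORFs. YPR078C had 20.1, 20.5 and 9.67 CPM in the 3 pho92Δ libraries and 43.2, 190 and 178 CPM in CUP1-PHO92. YDL186W had 27.7, 29.8 and 15.6 CPM and 70.4, 175 and 136 CPM, in the same order. The groups did not overlap for either ORF, and replicate 1 of CUP1-PHO92 was the lowest of its group for both. Of the 19 ORFs, 18 were higher in CUP1-PHO92 at an adjusted p under 0.05 (edgeR) and 0 lower, where the background was 17.6% of features higher and 18.3% lower. The median log2 fold change was 2.13 (range 1.12 to 3.04), against 0.00 over all features. For 17 ORFs all 3 CUP1-PHO92 libraries lay above all 3 of pho92Δ, as they did for 27.0% of all features.

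The 5 largest changes among ORFs whose groups did not overlap were those of YPR078C, YFL040W, YNL019C, YKR015C and YNR014W. YPR078C differed by 3.04 on the log2 scale (SE 0.779, edgeR adjusted p = 0.00610). For YFL040W, the putative sugar porter, pho92Δ had 10.3, 12.4 and 7.31 CPM and CUP1-PHO92 had 27.5, 102 and 82.8 CPM, a log2 fold change of 2.84 (SE 0.676). The change of YNR014W, 2.48 (SE 0.356), had the smallest adjusted p of the 19, 5.35e-05 by edgeR. The ORF that did not pass was YPL035C, with a log2 fold change of 1.12 (SE 0.622, edgeR adjusted p = 0.168). Without pho92Δ replicate 3, the lowest library of its group for 18 ORFs, the count of 18 became 10.

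The named middle meiotic genes, a list chosen from textbook knowledge with earlier results of these data known, gave 32 higher and 1 lower of 38 in the same comparison (median 1.69). SPS4, a sporulation gene, had 210, 205 and 113 CPM in pho92Δ and 350, 1645 and 1307 CPM in CUP1-PHO92. NDT80 itself had 258, 278 and 194 CPM and 292, 546 and 490 CPM, and its log2 fold change of 0.87 (SE 0.442) did not pass (edgeR adjusted p = 0.135). The 13 late spore wall genes gave 9 higher and 1 lower. Early meiotic genes gave 4 higher and 3 lower of 28, with a median of 0.09. Haploid and mating-type genes gave 5 higher and 4 lower of 12 tested, and G1 cyclins 1 higher and 4 lower of 6. The part of any of these lists in the result for the unnamed ORFs was not tested.

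**Figure D3:**
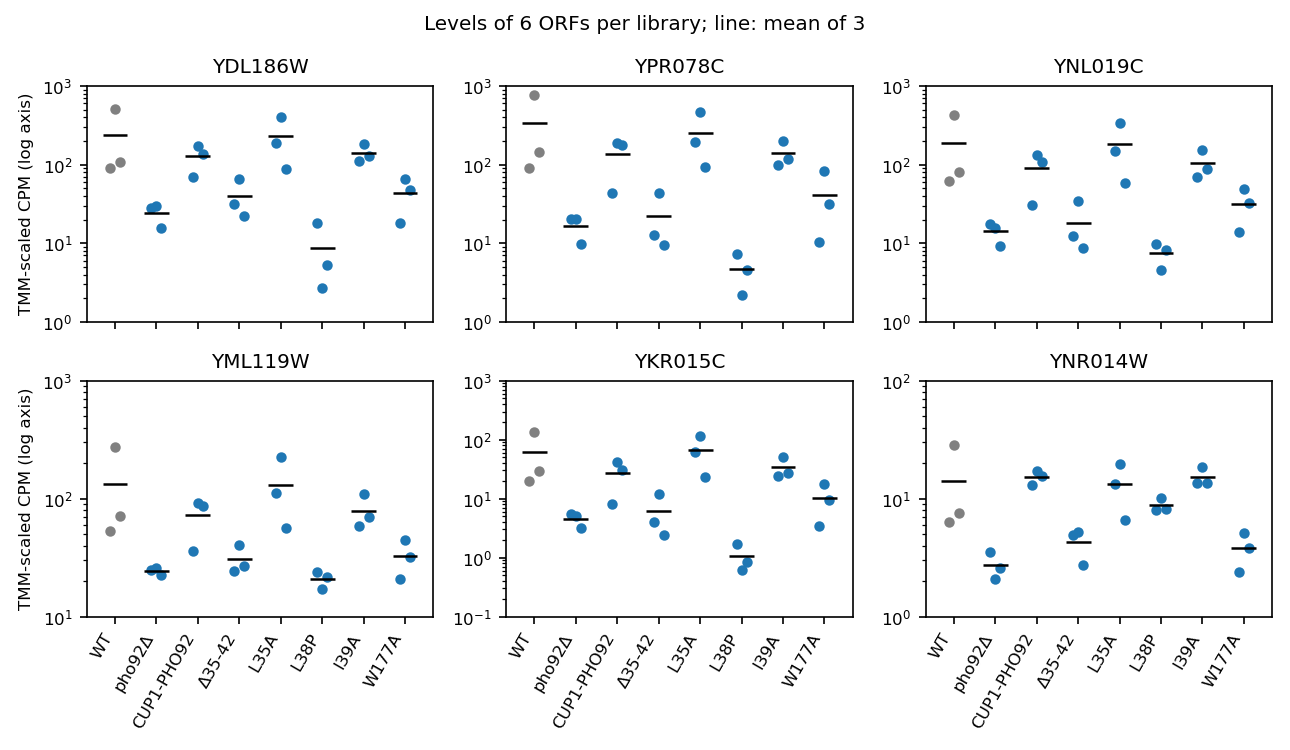
TMM-scaled CPM (log axis) of 6 ORFs in every library of the 8 groups, with a line at the mean of 3; grey points are WT, which chose the members. YNR014W in L38P, at 8.06 to 10.2 CPM, lies above the pho92Δ libraries, at 2.10 to 3.51 CPM, unlike the other ORFs shown.

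Pho92 with L38P went with the lowest levels. YPR078C had 7.34, 2.18 and 4.59 CPM in L38P, all under the 43.2 to 190 CPM of CUP1-PHO92. YKR015C, a hypothetical protein with the longest coding sequence of the 16, had 8.06, 42.3 and 30.5 CPM in CUP1-PHO92 and 1.72, 0.622 and 0.834 CPM in L38P. YDL186W had 18.0, 2.697 and 5.34 CPM in L38P. In each of these the groups stood apart and L38P replicate 2, of batch B, was the lowest. Of the 19 ORFs, 18 were lower in L38P than in CUP1-PHO92 (edgeR) and 0 higher, beside a background of 21.6% of features lower and 23.6% higher. For all 19 the 3 L38P libraries lay below the 3 CUP1-PHO92 libraries, which held for 23.8% of all features. The median log2 fold change was -2.91, against 0.04 over all features.

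YPR078C changed by -4.89 (SE 0.868, edgeR adjusted p = 0.000261), YKR015C by -4.70 (SE 0.838), YDL186W by -3.89 (SE 0.693), YFL040W by -3.74 (SE 0.711) and YNL019C by -3.61 (SE 0.705). At the other end, YNR014W changed by -0.79 (SE 0.326), which did not pass (edgeR adjusted p = 0.0551). Within batch A, without L38P replicate 2, 17 ORFs were called lower. NDT80 was lower in L38P, at 159, 28.4 and 79.8 CPM (log2 fold change -2.31, SE 0.462), as were 37 of 38 middle meiotic, 11 of 13 late spore wall and 25 of 28 early meiotic genes. Of the haploid and mating-type genes, 4 were lower and 2 higher, and of the G1 cyclins 1 was lower and 4 higher. Their part in the ORFs' levels was not tested.

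L38P was also set against the absence of Pho92. Most ORFs had lower means in L38P than in pho92Δ, but a difference was called for 1 ORF, and that one was higher. YNR014W had 3.51, 2.10 and 2.59 CPM in pho92Δ and 8.06, 10.2 and 8.18 CPM in L38P, with every L38P library above every pho92Δ library, as for 24.5% of all features. Its log2 fold change was 1.69 (SE 0.353, edgeR adjusted p = 0.00183), where 15.6% of all features were called higher and 14.4% lower. The other 18 ORFs had log2 fold changes of -2.14 to -0.22, and 0 of them passed. For YKR015C, with the value -2.14 (SE 0.853, edgeR adjusted p = 0.0654), the L38P libraries lay below all pho92Δ libraries, as they did for YGL230C, YJL043W and YPR078C. This holds for 21.9% of all features. Without L38P replicate 1, the highest of its group for 16 ORFs, 3 ORFs passed. DESeq2 called 2. In this comparison 27 of 28 early meiotic and 8 of 38 middle meiotic genes were lower, and NDT80 changed by -1.45 (SE 0.450, edgeR adjusted p = 0.0219).

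YNR014W encodes a hypothetical protein whose expression is annotated as cell-cycle regulated, dependent on the transcription factor Azf1 and heat-inducible. It had 13.1, 17.2 and 15.6 CPM in CUP1-PHO92, 13.5, 18.7 and 13.6 CPM in I39A and 13.4, 19.8 and 6.58 CPM in L35A. In Δ35-42 it had 4.89, 5.17 and 2.71 CPM, and in W177A 2.40, 5.13 and 3.81 CPM. The L38P libraries lay between these ranges except for L35A replicate 3, and above every Δ35-42, W177A and pho92Δ library. The largest to smallest library ratio within CUP1-PHO92 was 1.32 for YNR014W, the lowest of the 19 ORFs, and 7.59 for YPR077C, the highest.

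Removal of residues 35 to 42 went with levels near those of the deletion. YOL024W, the copy of IGD1, had 11.2, 28.7 and 21.9 CPM in CUP1-PHO92 and 4.71, 8.40 and 3.21 CPM in Δ35-42. YGR273C, the copy of GSR1, had 10.8, 27.8 and 25.3 CPM and 5.52, 10.3 and 3.16 CPM. YHL012W, the copy of UGP1, had 18.2, 35.1 and 28.9 CPM and 11.4, 15.6 and 11.0 CPM. In all of these the groups did not overlap, though replicate 1 of CUP1-PHO92 lay close to replicate 2 of Δ35-42. Of the 19 ORFs, 13 were lower in Δ35-42 than in CUP1-PHO92 (edgeR) and 0 higher, beside a background of 11.6% of features lower and 12.6% higher. The median was -1.68 (range -2.64 to -0.57), against -0.02 over all features, and 7 ORFs had groups that did not overlap, as had 19.4% of features in this direction. Of these 7, the 5 called were YOL024W at -1.93 (SE 0.501), YNR014W at -1.85 (SE 0.342), YGR273C at -1.75 (SE 0.534), YGL230C at -1.62 (SE 0.492) and YHL012W at -1.11 (SE 0.326).

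The count of 13 moved with single libraries. It became 2 without CUP1-PHO92 replicate 2, 2 without CUP1-PHO92 replicate 3, 2 without Δ35-42 replicate 1 and 1 without Δ35-42 replicate 3. It rose to 17 without CUP1-PHO92 replicate 1 and to 16 without Δ35-42 replicate 2. With WT in the fit it was 5, and with DESeq2 14. Middle meiotic genes gave 18 lower and 1 higher of 38, late spore wall genes 4 lower and 1 higher of 13, and early meiotic genes 2 lower and 1 higher of 28. Against pho92Δ, 0 of the 19 ORFs differed in Δ35-42 (edgeR), 0 had an unadjusted p under 0.05 and DESeq2 called 0; the background was 0.105% of features. Log2 fold changes were 0.01 to 0.71 with SE of 0.330 to 0.770, so a difference of this size was not detectable here. The middle meiotic list gave 0 of 38 in either direction (median 0.39).

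Pho92 with W177A, a substitution outside residues 35 to 42, gave group means between pho92Δ and CUP1-PHO92, as Δ35-42 did, with wide spread. W177A was not compared with Δ35-42. YPR078C had 10.4, 82.6 and 31.8 CPM in W177A, a range that overlaps both CUP1-PHO92 and pho92Δ. YML119W, the potential Cdc28 substrate, had 36.3, 92.5 and 87.2 CPM in CUP1-PHO92 and 20.7, 44.4 and 31.9 CPM in W177A. YJL043W, a hypothetical protein, had 16.0, 57.3 and 54.3 CPM and 6.54, 20.6 and 12.9 CPM. The groups overlapped for each of these, through replicate 1 of CUP1-PHO92 and replicate 2 of W177A. Of the 19 ORFs, 6 were lower in W177A than in CUP1-PHO92 (edgeR) and 0 higher, where 14.4% of features were lower and 15.5% higher. They were YGR273C, YJL043W, YML119W, YNR014W, YOL024W and YPR077C. Of these YNR014W, at -2.04 (SE 0.345, edgeR adjusted p = 0.000378), had groups that did not overlap; 3 ORFs in all had such groups, as had 21.6% of features. The median over the 19 was -1.41, and 16 had an unadjusted p under 0.05.

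This count also moved with single libraries. It became 1 without W177A replicate 1, which is the batch B library, so that within batch A 1 ORF was called. It was likewise 1 without W177A replicate 3, without CUP1-PHO92 replicate 2 or without CUP1-PHO92 replicate 3, and 10 without W177A replicate 2 and 17 without CUP1-PHO92 replicate 1. With WT in the fit it was 1, with DESeq2 8 and with the replicate number as a block 17. Middle meiotic genes gave 5 lower and 1 higher of 38, and late spore wall genes 2 lower of 13. Against pho92Δ, W177A gave 0 of 19 ORFs (edgeR), 0 at an unadjusted p under 0.05 and 0 with DESeq2, with a background of 1.35%. All 19 log2 fold changes were positive, at 0.40 to 1.34 with a median of 0.68 against 0.02 over all features. Within batch A, without W177A replicate 1, 0 ORFs passed against pho92Δ, but 6 had an unadjusted p under 0.05 (edgeR). The log2 fold changes were then 0.48 to 1.78, with a median of 0.97, and 274 of 5686 features were called.

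With L35A and I39A the unnamed ORFs reached levels like those of CUP1-PHO92 or above. YPR078C had 194, 463 and 93.8 CPM in L35A and 99.2, 202 and 118 CPM in I39A. YKR015C had 60.9, 116 and 23.1 CPM in L35A and 24.4, 50.6 and 26.7 CPM in I39A. Each of these libraries lay above every pho92Δ library. Against pho92Δ, 18 of 19 ORFs were higher in L35A (edgeR; background 10.5% higher and 11.6% lower), with a median log2 fold change of 2.94 (range 1.69 to 3.91). Similarly 18 of 19 were higher in I39A (background 11.8% higher and 11.4% lower), with a median of 2.27 (range 1.13 to 3.06). Both comparisons share the pho92Δ libraries with each other and with that of CUP1-PHO92. The ORF not called was YPL035C in both, at 1.69 (SE 0.608, edgeR adjusted p = 0.0535) in L35A and 1.13 (SE 0.621, edgeR adjusted p = 0.194) in I39A. In each, 18 ORFs had all 3 libraries above those of pho92Δ, as had 21.8% of features for L35A and 24.8% for I39A.

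In L35A against pho92Δ the ORFs with the largest changes were YPR078C at 3.91 (SE 0.805), YKR015C at 3.86 (SE 0.745), YFL040W at 3.74 (SE 0.696), YNL019C at 3.69 (SE 0.695) and YJL043W at 3.27 (SE 0.652). In I39A they were YPR078C at 3.06 (SE 0.779), YFL040W at 2.98 (SE 0.678), YKR015C at 2.89 (SE 0.724), YNL019C at 2.87 (SE 0.675) and YPR077C at 2.53 (SE 0.731). The count in I39A became 6 without pho92Δ replicate 3 and 9 without I39A replicate 2. The middle meiotic list gave 35 higher of 38 in L35A and 31 in I39A, with 0 lower in each, and the early meiotic list 4 and 1 higher of 28. NDT80 had 670, 972 and 451 CPM in L35A and 433, 553 and 419 CPM in I39A, and was called in L35A (log2 fold change 1.52, SE 0.448, edgeR adjusted p = 0.0217).

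L35A was not separated from CUP1-PHO92 by these ORFs. YNL019C, for example, had 30.6, 134 and 109 CPM in CUP1-PHO92 and 148, 342 and 58.5 CPM in L35A, and YFL040W 108, 237 and 52.8 CPM in L35A; both ranges overlap those of CUP1-PHO92. Of the 19 ORFs, 0 differed (edgeR), 1 had an unadjusted p under 0.05 and DESeq2 called 0, where 23.5% of all features differed. Log2 fold changes were -0.21 for YNR014W and 0.57 to 1.296 for the other 18, with a smallest adjusted p of 0.110. Without L35A replicate 3, the lowest of its group for all 19 ORFs, 4 ORFs passed. The middle meiotic list gave 3 higher of 38.

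I39A against CUP1-PHO92 gave the smallest differences. YDL186W had 110, 183 and 127 CPM in I39A beside 70.4, 175 and 136 CPM in CUP1-PHO92. YDL114W, the putative dehydrogenase, had 44.9, 71.0 and 49.7 CPM beside 33.7, 69.6 and 58.2 CPM. The ranges overlap in both. Of the 19 ORFs 0 differed (edgeR), 0 had an unadjusted p under 0.05 and DESeq2 called 0; 0.0351% of all features, 2 in number, differed. Log2 fold changes were -0.10 to 0.33 with SE of 0.319 to 0.708, which leaves room for differences of that order.

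**Figure D4:**
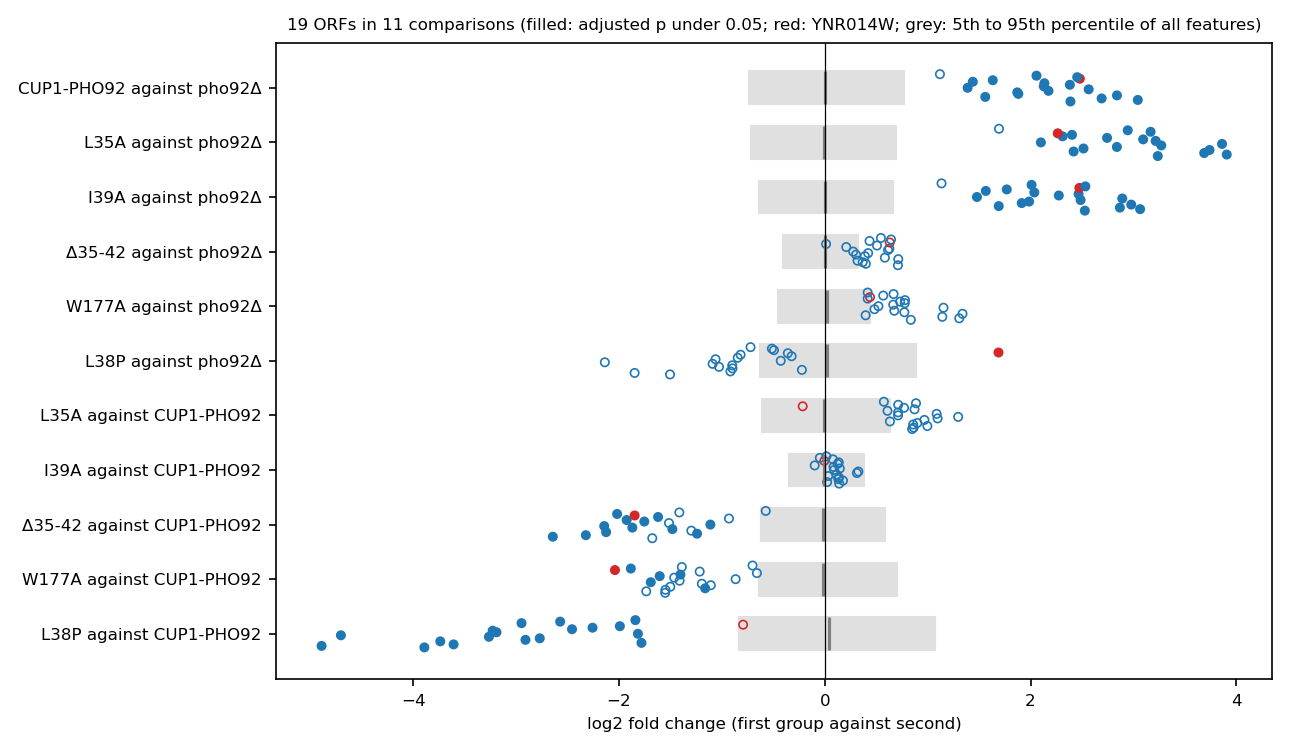
Log2 fold change of each of the 19 ORFs in the 11 comparisons, filled where the edgeR adjusted p is under 0.05; red is YNR014W and grey bars span the 5th to 95th percentile of all 5692 features. The ORFs lie above the bar for CUP1-PHO92, L35A and I39A against pho92Δ, and 18 of 19 lie below it for L38P against CUP1-PHO92.

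The ranges of log2 fold change overlapped between ORFs with and without the extended element. In CUP1-PHO92 against pho92Δ, the 9 ORFs with an extended element had log2 fold changes of 1.44 to 3.04 (median 2.13) and the 7 without it 1.39 to 2.69 (median 2.17). In L38P against CUP1-PHO92 the values were -4.89 to -1.99 (median -3.19) and -4.70 to -0.79 (median -2.46). In L35A against pho92Δ they were 2.31 to 3.91 (median 3.09) and 2.10 to 3.86 (median 2.74). YKR015C, with neither the extended nor the core form in the window, had the second largest fall in L38P, and YPR078C, with the extended form, the largest. These are descriptions, with no test between the sets.

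Libraries of a group differed from each other in the ORFs as a block. In Δ35-42, L35A, I39A and W177A, replicate 2 was the highest of its group for all 19 ORFs, and in CUP1-PHO92 it was so for 16. In L38P, replicate 1 was the highest for 16, beside 36.4% of all features. The batch B libraries were the lowest of their groups for most ORFs: L38P replicate 2 for 18 and W177A replicate 1 for 16. Over the 5692 features tested they were the lowest for 1898 and 2507, in that order. By comparison, the share of all features highest in replicate 2 was 34.2% in Δ35-42, 33.9% in L35A, 33.4% in I39A, 30.6% in W177A and 28.7% in CUP1-PHO92. The median ratio of highest to lowest library ran from 1.69 in pho92Δ to 4.55 in L35A over the ORFs, and from 1.14 to 1.22 in the same groups over all features. NDT80 was highest in the same library as most ORFs in each of the 7 groups, and 33 to 38 of the 38 middle meiotic genes were highest in replicate 2 of Δ35-42, L35A, I39A, W177A and CUP1-PHO92. The rule picked the ORFs for a high value in WT replicate 2. These counts come from other libraries, but same-numbered libraries deviated together in some comparisons. The counts for replicate 2 may therefore not be independent of the rule. Whether the WT libraries deviated with those of the same number was not tested. How far the spread within groups moves the comparisons was tested only by leaving libraries out and by the replicate block.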

How the data were processed

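The deposited table holds whole-number counts per feature, not normalized by the authors as its values show. STAR 2.7.10a, RSEM 1.3.1 and DESeq2 1.48.1 are named in the submitters' processing notes, with no roles; build, annotation and strand setting are not given in the sources used here. The kit is directional per the labels' protocols, but reads of antisense partners cannot be told apart without the setting.

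The 21 libraries other than WT were fitted with edgeR 4.0.16 in R 4.3.3 (limma 3.58.1 loaded): TMM scaling, filterByExpr (5692 features tested, 465 removed), glmQLFit with 1 mean per group (14 residual degrees of freedom) and glmQLFTest, with Benjamini-Hochberg adjustment over all features tested and a threshold of 0.05. WT was left out because it chose the members. SE is the absolute log2 fold change over the square root of F. Printed levels use TMM factors from all 24 libraries. A floor of 3 counts is 0.0817 to 0.186 CPM, for counting error only. P-values measure the spread between samples, which the labels do not state to be separate cultures. The fit was tested on simulated data in which features varied independently with 1 fixed spread. The simulation held no shifts of many features together between libraries of a group, so it does not cover calls made under such shifts.

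Members and lists (middle meiotic, late spore wall, early meiotic, haploid and mating-type, G1 cyclin) were chosen with earlier results of these data known. ORFs were named by rule: the 10 of highest mean CPM, and up to 5 largest called changes without overlap per comparison; others were named after their values were seen. Same-numbered libraries deviated together in every pair (correlation over 0.1) for Δ35-42 (0.530, 0.212 and 0.229), L35A and I39A against CUP1-PHO92 and for L35A and W177A against pho92Δ, and not in the other 6 comparisons; the labels do not say what a number marks. Alternatives were RLE scaling, no filter, a replicate block, all 24 libraries, DESeq2 1.42.0, batch A alone and each library left out. For 1 of the 9 ORFs with an extended element the sequence is not reported here.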

Additional observations from a re-analysis of the deposited data

How the results depend on the processing

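Over 92 called differences of single ORFs, 1037 alternative values were computed; 902 stayed past the threshold, 135 did not, and 0 changed direction. Counts of ORFs called, with each library left out in turn, ranged from 10 to 18 for CUP1-PHO92 against pho92Δ, 1 to 17 for Δ35-42, 0 to 4 for L35A, 17 to 18 for L38P, 0 to 0 for I39A and 1 to 17 for W177A against CUP1-PHO92. Against pho92Δ they ranged from 0 to 0 for Δ35-42 and W177A, 18 to 19 for L35A, 1 to 3 for L38P and 6 to 18 for I39A. With all 24 libraries fitted, which lets the WT values that chose the members add to the spread, Δ35-42 against CUP1-PHO92 had 5 and W177A against CUP1-PHO92 had 1. Within batch A, W177A against CUP1-PHO92 had 1. DESeq2 gave 2 for L38P against pho92Δ. With the replicate number as a block, W177A against CUP1-PHO92 had 17. There 2 of the 3 same-numbered pairs had a correlation over 0.1 (0.432, 0.275 and -0.074). L38P against pho92Δ had 2 with the block, and there 0 pairs had such a correlation. In Δ35-42 against CUP1-PHO92, where all 3 pairs had it, the block gave 17 in place of 13. The block moved no other count by more than 1.5 times. The cause of these shifts was not tested. RLE scaling and no filter moved no count by more than 1.5 times. Depth limits YPL035C, YNL205C, YKR015C and YPR077C most, with 9, 11, 18 and 20 counts in their lowest libraries.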

Other observations

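In CUP1-PHO92 against pho92Δ, of the partners of 4 ORFs from the whole genome duplication, 1 was called lower and 3 were not called, while the 4 ORFs were called higher. GSR1 (YMR295C), the partner of YGR273C, had 200, 187 and 184 CPM in pho92Δ and 134, 109 and 129 CPM in CUP1-PHO92, a log2 fold change of -0.62 (SE 0.0974, called by edgeR), while YGR273C changed by 2.38 (SE 0.554). Of the others, UGP1, the partner of YHL012W, had 0.12 (SE 0.102), YMR206W, the partner of YNR014W, 0.38 (SE 0.208) and IGD1, the partner of YOL024W, -0.23 (SE 0.211), and these did not pass. Differences between partners were not tested.

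Of 30 genes tested that flank the 16 ORFs in R64, 5 were higher and 7 lower in CUP1-PHO92 than in pho92Δ. Over all features the shares were 17.6% higher and 18.3% lower. In L38P against CUP1-PHO92, 5 were higher and 4 lower, beside 23.6% and 21.6% of all features. In L35A against pho92Δ, 4 were higher and 2 lower, beside 10.5% and 11.6%. Whether the flanking genes differ from all features was not tested. HXT10, a hexose transporter gene downstream of YFL012W on the same strand, had 2.47, 1.56 and 1.33 CPM in pho92Δ and 8.48, 33.3 and 43.3 CPM in CUP1-PHO92, a log2 fold change of 3.99 (SE 0.901). In L38P it changed by -3.79 (SE 0.881) against CUP1-PHO92. HXT10 was singled out after its values were seen.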
